A study of Mus musculus with 2 samples.

Results

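The 10 genes described here are the regulators and surface proteins that mark muscle stem cells on their way to new muscle: Pax7, Calcr, Myf5, Myod1, Myog, Mymk, Mymx, Cdh15, Megf10 and Fgfr4. They were chosen by name, and are 10 of the 32287 features of the matrix. Their unique molecular identifiers (UMIs, each standing for 1 captured RNA molecule) were counted in single cells from the tibialis anterior and gastrocnemius of S100GFPtg mice. In these mice the S100B promoter drives green fluorescent protein, which labels Schwann cells and any other cell that uses that promoter. The sciatic nerve had been crushed on both sides, and muscle was taken at 7 days post-injury (7dpi) from male mice with intact Sod1, whose age the series text gives as 2 months. Viable GFP+ cells, negative for propidium iodide, were sorted and sequenced as 1 library of 3' tags. The GFP- fraction of the same muscle is the other library of the series and was not analysed here. The series text speaks of a single crushed mouse and the study's methods of pooled males, so the number of animals is not certain. The methods also give nerve-crushed mice an older range of ages, so the age is not certain either. No uninjured sample and no replicate stands beside this library, so levels are compared between cell classes within it, without a test, and every interval given covers counting error only.

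The library held 36400 barcodes, 170648616 UMIs and a median of 2130 UMIs for each barcode. At least 2000 UMIs were held by 19553 barcodes, and filters on genes, mitochondrial counts and predicted doublets left 15830 cells with a median of 5799 UMIs. These fell into 31 clusters, formed and named without the 10 genes. The GFP+ label took in many cell types: 349 of the cells kept were Schwann-like, while 5552 were monocyte/macrophage-like and 4691 mesenchymal-like. The cluster that took the satellite cell and myoblast name held 288 cells (1.82% of those kept), 2538432 UMIs and a median of 8403.5 UMIs for each cell. Of the 22 markers on its list, 19 were enriched in it, and it was led by Chrdl2, Tmem61, Col19a1, Erfe and Gm26834. Of defining genes of other cells, Ptprc, which marks leukocytes, was counted 9 times in 8 cells, Csf1r of macrophages 5 times, Pdgfra of mesenchymal cells 4 times, Sox10 of Schwann cells 0 times and Pecam1 of endothelial cells 51 times in 22 cells. Summed over whole marker lists, the cluster held 1644 CPM (UMIs for each 1000000 UMIs of the class) of the mesenchymal list, against 43237 CPM in the mesenchymal-like cells, and 317 CPM of the monocyte/macrophage list. It held 1461 CPM of the smooth muscle and pericyte list, with 15 of its 16 genes counted, 789 CPM of the Schwann list, with 16 of 19, and 514 CPM of the lymphatic endothelial list, with 5 of 7. The smooth muscle and pericyte list includes Des, which is also on the satellite cell and myoblast list. Of its 3709 UMIs in the cluster, Des held 502 in the 90 cells with a Myod1 UMI and 781 in the 198 without. The Schwann list includes Ncam1, read below as a muscle gene. These sums therefore do not measure RNA of other cells alone. The part of RNA of other cells in the levels of the 10 genes was not tested. A further cluster of 265 cells took the muscle fibre name, with 1642011 UMIs and a median of 3596 UMIs for each cell. The GFP+ and GFP- libraries shared 372 barcode sequences, of which 2 were in the satellite cell and myoblast-like cluster and 0 in the muscle fibre-like cluster.

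Skeletal muscle keeps a pool of stem cells, the satellite cells, beneath the basal lamina of its fibres. Quiescent satellite cells express the paired-box factor Pax7 and the calcitonin receptor Calcr, and after activation the helix-loop-helix factors Myf5 and Myod1 drive them into the myoblast state. Myogenin (Myog) then commits myoblasts to differentiate, and the membrane proteins myomaker (Mymk) and myomixer (Mymx) let them fuse with each other and with fibres. M-cadherin (Cdh15) joins satellite cell to fibre, Megf10 is a transmembrane protein with EGF-like repeats that acts in satellite cell proliferation, and Fgfr4 is the fibroblast growth factor receptor typical of the myogenic lineage. Loss of the nerve is also known to raise Myog in the nuclei of the fibres themselves.

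MYOD1, MYF5 and myogenin bind the E-box, whose letters are CANNTG. The 250 bases before the transcription start were read for 6 of the 10 genes from RefSeq (GRCm38.p6) and searched for CANNTG on both strands, which for these palindromic letters gives the same sites. Shown are the 3 promoters that held at least 2 matches, each on the plus strand, with the matches in capitals: Myog at chr1:134289754-134290003, Cdh15 at chr8:122848124-122848373 and Fgfr4 at chr13:55152568-55152817.
Myog: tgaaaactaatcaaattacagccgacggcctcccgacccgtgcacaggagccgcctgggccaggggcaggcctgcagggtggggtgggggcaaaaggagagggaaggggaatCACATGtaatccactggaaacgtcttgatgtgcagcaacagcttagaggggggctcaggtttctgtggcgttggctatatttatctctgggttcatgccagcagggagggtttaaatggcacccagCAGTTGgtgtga
Cdh15: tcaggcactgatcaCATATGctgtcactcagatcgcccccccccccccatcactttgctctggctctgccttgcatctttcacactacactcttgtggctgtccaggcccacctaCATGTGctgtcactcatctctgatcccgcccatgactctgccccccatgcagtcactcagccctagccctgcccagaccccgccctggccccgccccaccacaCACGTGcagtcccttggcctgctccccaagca
Fgfr4: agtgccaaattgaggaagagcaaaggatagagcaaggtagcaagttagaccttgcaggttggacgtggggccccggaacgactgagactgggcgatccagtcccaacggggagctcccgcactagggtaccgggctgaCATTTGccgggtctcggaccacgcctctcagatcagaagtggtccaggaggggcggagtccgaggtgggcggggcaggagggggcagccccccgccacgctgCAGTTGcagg
In Myog the matches were CACATG and CAGTTG, which began at -138 and -12 from the start. Cdh15 held CATATG at -236, CATGTG at -135 and CACGTG at -32, and Fgfr4 held CATTTG at -112 and CAGTTG at -10. Calcr has 2 listed starts, of which 1 had a single match and the other had 0, and the promoters of Pax7 and Myf5 had 0. The windows read for Pax7 (chr4:139832969-139833218) and Myf5 (chr10:107486135-107486384) lie inside the gene spans given below. So does the Calcr window with 0 matches. The starts used for these windows therefore differ from the ends of those spans. The letters are common: of 32851 mouse promoters of this length, 66.22% held at least 1 match, 31.81% at least 2 and 12.21% at least 3. A match is a description of the sequence and not of binding. Cdh15 and Fgfr4, with matches, were counted in most cells of the satellite cell and myoblast-like cluster. Pax7 and Myf5, with 0 matches, were counted in most of its cells too. Myog, with matches, was not counted there at all. A link between matches and levels was not tested.

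Of the 10 members, 7 were found at high levels in the satellite cell and myoblast-like cells, and the differentiation genes Myog, Mymk and Mymx were not. Summed over the 10 genes, the cluster held 1242.5 CPM (95% Poisson interval 1200 to 1287), against 10.8 CPM in the other 15542 cells. Of the 9 members with enough UMIs to compare, 7 were at least 4-fold higher in the cluster than in the other cells, a size that 5.06% of the 20414 genes compared reached. UMIs of 3' tags were not scaled by transcript length, so each gene is compared between cells and the genes are not ranked against each other.

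**Figure D1:**
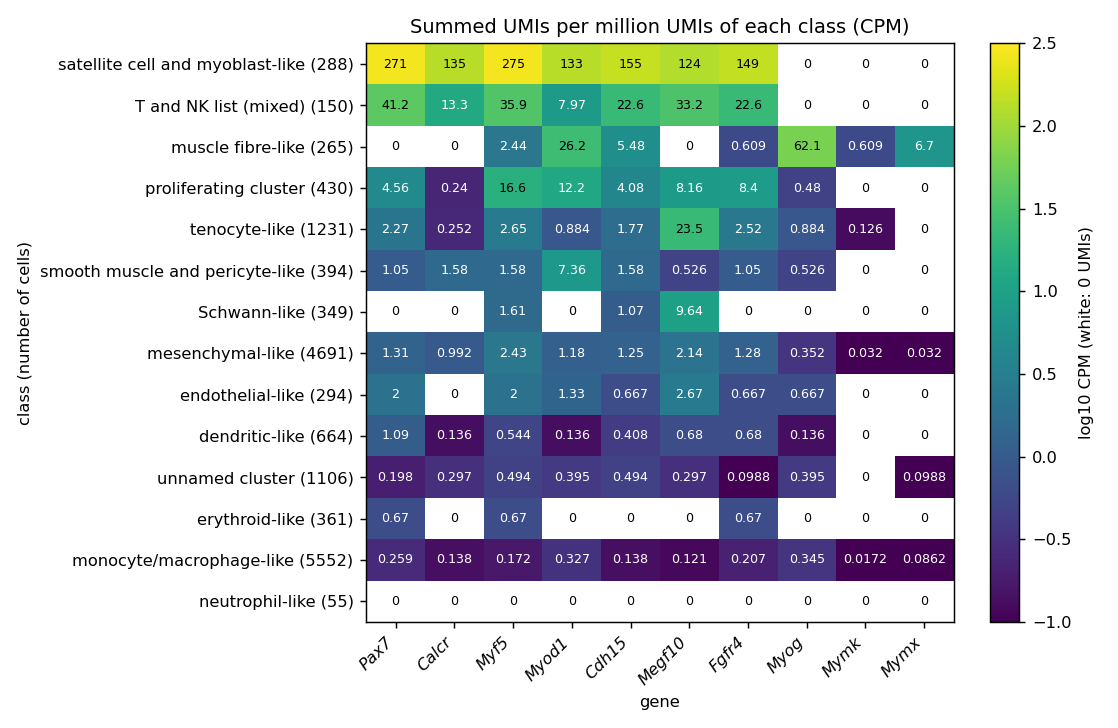
Level of each of the 10 genes (columns) in each cell class (rows) of the GFP+ library, in CPM, on a log colour scale with the value printed in each cell. The 7 genes counted in the 288 satellite cell and myoblast-like cells are between 124 and 275 CPM there, while Myog is at 62.1 CPM in the muscle fibre-like cells and 0 in the satellite cell and myoblast-like cells.

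Pax7 and Calcr, taken here as the quiescence genes, were counted mainly in this cluster. Pax7 (chr4:139737059-139833530, GRCm38.p6) ranged from 0 to 11 UMIs per cell with a median of 2, and 112 of the 288 cells held at least 3. Its 688 UMIs in the cluster were 83.1% of those in all cells kept and gave 271 CPM (251 to 292), against 1.09 CPM in the other cells, a log2 ratio of 7.96 (7.69 to 8.23). Calcr (chr6:3685678-3764713) ranged from 0 to 21 UMIs with a median of 0, and 37 cells held at least 3. It was at 135 CPM (121 to 150) against 0.460 CPM, a log2 ratio of 8.20 (7.80 to 8.62). Its UMIs were less evenly spread than those of Pax7, since the 10 cells with the most held 32.4% of Calcr and 12.9% of Pax7 UMIs. Ordered by fold over the other cells, Calcr was the 6th and Pax7 the 7th of the 20414 genes.

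Myf5 was found in most cells of the cluster and Myod1 in a minority. Myf5 (chr10:107482908-107486927) ranged from 0 to 17 UMIs with a median of 1, and 91 cells held at least 3. It was at 275 CPM (255 to 296) against 1.76 CPM in the other cells, a log2 ratio of 7.29 (7.07 to 7.51). Myod1 (chr7:46376474-46379092) ranged from 0 to 18 UMIs with a median of 0, and 40 cells held at least 3. It was at 133 CPM (119 to 148) against 1.44 CPM, a log2 ratio of 6.53 (6.27 to 6.80). The 10 cells with the most Myod1 held 38.6% of its UMIs, against 17.5% for Myf5. A UMI of Myf5 was held by 211 cells and a UMI of Myod1 by 90 cells. Only 64.7% of the Myod1 UMIs of all cells kept were in this cluster, and of the 184 outside it 51 were in proliferating, 43 in fibre-like, 37 in mesenchymal-like, 19 in monocyte/macrophage-like and 14 in smooth muscle and pericyte-like cells, the last with 13 in 1 cell.

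The surface proteins Cdh15, Megf10 and Fgfr4 were each counted in more than 160 of the 288 cells. Cdh15 (chr8:122848374-122867397) ranged from 0 to 9 UMIs with a median of 1. It was at 155 CPM (140 to 171) against 0.920 CPM in the other cells, a log2 ratio of 7.40 (7.10 to 7.71). Fgfr4 (chr13:55152818-55168759) ranged from 0 to 8 UMIs with a median of 1. It was at 149 CPM (135 to 165) against 1.05 CPM, a log2 ratio of 7.15 (6.86 to 7.44). Megf10 (chr18:57133090-57297467) also ranged from 0 to 8 UMIs with a median of 1. It was at 124 CPM (111 to 139) against 2.73 CPM, and its log2 ratio of 5.51 (5.28 to 5.73) was the smallest of the 7. This cluster held 77.0% of the Cdh15 and 73.7% of the Fgfr4 UMIs of all cells kept, but 47.4% of those of Megf10.

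Neither myogenin nor a fusion gene had a single UMI in these 288 cells. Myog (chr1:134290004-134292548), Mymk (chr2:27061636-27072161) and Mymx (chr17:45600961-45602196) were each at 0 of 2538432 UMIs, which allows up to 1.45 CPM by the Poisson interval and 1.18 CPM by a floor of 3 counts. For cells with a UMI, 0 of 288 allows a share of up to 1.04% by that floor and 1.27% by the binomial interval. In the other cells together Myog was counted 149 times (1.16 CPM), Mymx 18 times (0.140 CPM) and Mymk 4 times (0.0312 CPM). These levels lie below the bound of 1.45 CPM, so the zero does not show the cluster to be lower than the other cells together. The zero rests on the cells removed as predicted doublets: with them kept, the cluster held 2 cells with 77 Myog, 6 Mymk and 3 Mymx UMIs between them, and the same totals were found with barcodes of at least 1000 UMIs.

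**Figure D2:**
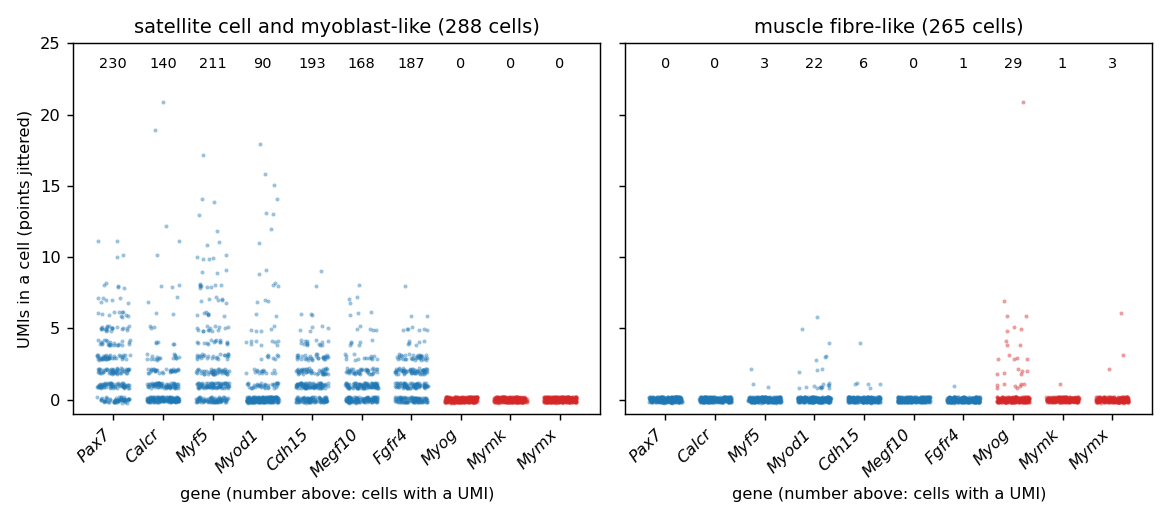
UMIs of each of the 10 genes in each satellite cell and myoblast-like cell (left, 288 cells) and each muscle fibre-like cell (right, 265 cells), 1 jittered point a cell, with the number of cells holding a UMI printed above. Pax7 was held by 230 cells on the left and 0 on the right, and Myog by 0 on the left and 29 on the right.

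The share of cells in which a gene was seen depended on depth, so it was also taken after thinning every cell at random to 2000 UMIs. Pax7 was seen in 36.8% of the thinned cells (79.9% unthinned), Myf5 in 32.3% (73.3%), Fgfr4 in 27.4% (64.9%), Cdh15 in 25.7% (67.0%), Megf10 in 24.0% (58.3%), Calcr in 20.8% (48.6%) and Myod1 in 12.8% (31.2%). In the 5552 monocyte/macrophage-like cells, which should lack these genes and had a median of 10011.5 UMIs, thinned shares ran from 0.0360% for Myf5, Cdh15 and Megf10 to 0.162% for Myod1. The gap between classes was therefore far larger than that background. Unthinned, a cell held a UMI of a median of 4 of the 7 genes, 8 cells held all 7 and 4 cells held 0. After thinning the median was 2 and 42 cells held 0. Cells with a Pax7 UMI had a median of 8678 UMIs against 6755 for those without, while for Myod1 the medians were 8679.5 and 8268.

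Quiescence and differentiation genes were never seen in the same cell of the cluster. Thinned, 141 of the 288 cells (49.0%, binomial interval 43.0 to 54.9%) held Pax7 or Calcr and 0 held Myog, Mymk or Mymx. Unthinned, 253 cells (87.8%, 83.5 to 91.4%) held Pax7 or Calcr, 35 held none of the 5 genes, and again 0 held both kinds. The upper bound of the share with both is 1.27%. Since no cell of the cluster had a differentiation UMI, this count does not show exclusion within it, and the planned comparison of its differentiating with its quiescent cells could not be made. Over all 15830 cells kept, 402 held Pax7 or Calcr, 82 held a differentiation gene and 1 held both. Pax7 was held by 342 and Myog by 70 of them, with 0 holding the pair. Over the 19553 barcodes of at least 2000 UMIs before any other filter, 494 held a quiescence gene, 98 a differentiation gene and 2 both.

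Pax7 and Myod1 were seen together in a part of the cells. Unthinned, 70 cells (24.3%) of the cluster held both, and 9 did after thinning. Myod1 was found in 30.4% of cells with Pax7 and 34.5% of those without, and after thinning in 8.49% and 15.4%. The intervals overlapped at both depths, so no excess of the pair was seen. Pax7 or Calcr stood with Myod1 in 77 cells (26.7%, 21.7 to 32.2%) unthinned and in 14 cells (4.86%, 2.68 to 8.02%) thinned. Myod1 was found in 30.4% of the 253 cells with Pax7 or Calcr and in 13 of the 35 cells (37.1%) without, and these intervals overlapped. Pax7 and Calcr were seen together in 117 cells (40.6%), Pax7 and Myf5 in 170 (59.0%) and Myf5 and Myod1 in 64 (22.2%). Calcr was found in 50.9% of cells with Pax7 and 39.7% without, and Myf5 in 73.9% and 70.7%. Myod1 was found in 30.3% of cells with Myf5 and 33.8% without. For each of these pairs the unthinned intervals overlapped.

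**Figure D3:**
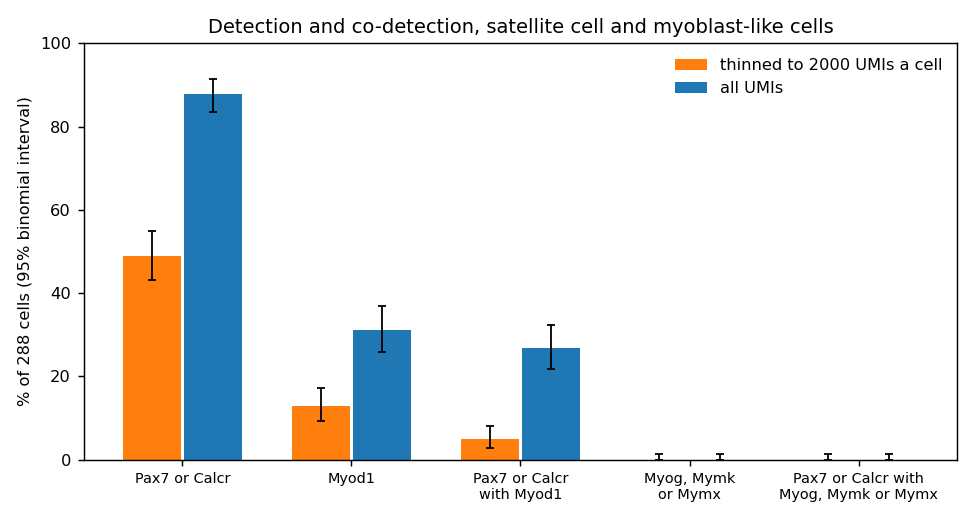
Share of the 288 satellite cell and myoblast-like cells (%) with a UMI of Pax7 or Calcr, of Myod1, of Myog, Mymk or Mymx, and of the pairs, thinned to 2000 UMIs and unthinned, with 95% binomial intervals. Pax7 or Calcr with Myod1 was seen in 4.86% of thinned and 26.7% of unthinned cells, and Pax7 or Calcr with a differentiation gene in 0%.

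Cells with and without a Myod1 UMI were set beside each other for the other members. The 90 cells with Myod1 and the 198 without held Pax7 at 260 and 276 CPM, Myf5 at 271 and 277 CPM and Calcr at 112 and 146 CPM. Cdh15 was at 136 and 164 CPM, Megf10 at 118 and 127 CPM and Fgfr4 at 167 and 141 CPM, with overlapping intervals for all 6. Among quiescence genes, Spry1, an inhibitor of growth factor signalling, was at 136 CPM (112 to 164) in cells with Myod1 and 198 CPM (178 to 220) in those without, while the intervals of Chodl (564 and 622 CPM) and Heyl (140 and 160 CPM) overlapped. The immediate early genes Fos (895 and 1404 CPM) and Jun (682 and 909 CPM) were also lower in cells with Myod1 and Des was higher (611 and 455 CPM), with intervals that did not overlap. For the immediate early gene Egr1 (1259 and 1347 CPM) and for Cdkn1a (185 and 147 CPM) the intervals overlapped. The share of all genes with intervals apart between these cells is not given here. The part of Fos, Jun and Des in the Spry1 difference was not tested.

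Clustered again without the 10 genes, the 288 cells split into 5 subclusters, of which the smallest held 10 cells and is not compared. The other 4 held 91, 52, 38 and 97 cells and were led by Inpp1 and Psat1, by Npy and Tnc, by Cblc and Ppm1n, and by Spock3 and Vldlr. All 7 genes were counted in each of the 4, and none of the 4 lacked Myod1. Pax7 was at 224, 248, 388 and 297 CPM in this order. Calcr was at 122, 81.9, 206 and 162 CPM, and Megf10 at 124, 128, 236 and 86.3 CPM. Both were highest in the subcluster of 38 cells, as were Pax7, Myf5 and Fgfr4. For Megf10 and Fgfr4 the interval of that subcluster stood clear of the next highest, and for Pax7, Calcr and Myf5 it overlapped. The subclusters were formed from other genes of these same cells, and the share of all genes that stood clear is not given. The 2 genes are therefore not shown to be particular. Between the highest and the lowest of the 4, Megf10 differed 2.73-fold, Calcr 2.51-fold, Fgfr4 1.95-fold, Pax7 1.74-fold, Myod1 1.70-fold, Cdh15 1.54-fold and Myf5 1.44-fold. Myod1 had another order, at 158, 94.4, 92.9 and 155 CPM. The immediate early genes, which tissue digestion can also raise, moved with the subclusters: Fos was at 1244, 328, 4166 and 780 CPM and Jun at 845, 461, 2042 and 647 CPM. Their part in the differences between subclusters was not tested.

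Myogenin was found in the muscle fibre-like cells. These 265 cells were led by Pgam2, Smpx, Trim63, Myf6 and Eef1a2. Myog ranged from 0 to 21 UMIs per cell with a median of 0, and its 102 UMIs lay in 29 cells. It was at 62.1 CPM (50.7 to 75.4), at least 52.6-fold above the floor of 3 counts in the satellite cell and myoblast-like cells, and made up 68.5% of the Myog UMIs of all cells kept. This share followed the clustering: it was 10.1% at a finer resolution of 2, and at a coarser resolution of 0.5 no cluster took the muscle fibre name. Mymx was counted 11 times in 3 cells, at least 5.67-fold above that floor, and Mymk 1 time. Of the 9 members compared between these classes, Myog and Mymx were at least 4-fold higher in the fibre-like cells and the other 7 at least 4-fold lower, sizes reached by 14.4% and 9.44% of the 12080 genes compared.

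Myod1 was present beside Myog in the fibre-like cells while the stem cell genes were not. Its 43 UMIs lay in 22 cells and gave 26.2 CPM, a log2 ratio of -2.34 (-2.84 to -1.88) to the satellite cell and myoblast-like cells, and 17 of those 22 cells also held Myog. Cdh15 was counted 9 times, Myf5 4 times and Fgfr4 1 time, with log2 ratios of -4.82, -6.82 and -7.94. Pax7, Calcr and Megf10 were at 0, so the satellite cell and myoblast-like cells held at least 148-fold, 74.0-fold and 67.9-fold more. A differentiation gene was seen in 31 fibre-like cells (11.7%), and Pax7 or Calcr in 0.

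The fibre-like cluster also held RNA of other cells. Ptprc was counted 381 times in 138 of its cells and Csf1r was found in 147, and the genes of the monocyte/macrophage list summed to 22406 CPM, against 31518 CPM in the monocyte/macrophage-like cells. Only 40 of the 265 passed the gate on muscle genes described with the proliferating cells, and in these Myog was at 206 CPM (163 to 256). The 7 gate genes are all on the satellite cell and myoblast list and include Chrna1, which 33 of the 40 held. Failing the gate therefore does not show that a cell is not muscle. With the macrophage RNA given above, the 62.1 CPM of Myog is a level over a mixed cluster. Clustered again, which was added after the data were seen, it gave a subcluster of 19 cells led by 2310015A16Rik, Myl4 and Hip1r. In this subcluster Myog was counted 61 times in 13 cells, at 366 CPM (280 to 470), Myod1 was at 150 CPM and Mymx at 65.9 CPM, with all 11 Mymx UMIs. Ptprc was counted 1 time there and Pdgfra 0 times, and the macrophage list summed to 180 CPM, so Myog was at its highest where these markers were near 0. The same 19 cells held Myf6, a regulator of mature fibres, at 1714 CPM, the acetylcholine receptor subunit Chrna1 at 294 CPM, Gadd45a at 1870 CPM and the skeletal actin Acta1 at 34529 CPM. A subcluster of 50 cells held Myog at 118 CPM and Myod1 at 45.2 CPM, with the macrophage list at 3204 CPM. In the subcluster of 83 cells led by Cd248, Pcsk5 and Prg4, which held the mesenchymal list at 14999 CPM, there was no Myog UMI. The subclusters of 74 and 39 cells held the macrophage list at 33465 and 28135 CPM and Myog at 12.5 and 21.4 CPM. Over the 265 cells, the genes whose levels followed Myog most closely were Ankrd1 (Pearson r = 0.70 of log UMIs per 10000, across cells of 1 library), Gadd45a (0.64), Myod1 (0.62), Myf6 (0.58) and Hspb8 (0.55). These cells share library, depth differences and the admixed RNA, so the values are a description. In the satellite cell and myoblast-like cells likeness was computed for Pax7 and Myod1, and the highest values were Notch3 at 0.30 for Pax7 and Pramef8 at 0.25 for Myod1.

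**Figure D4:**
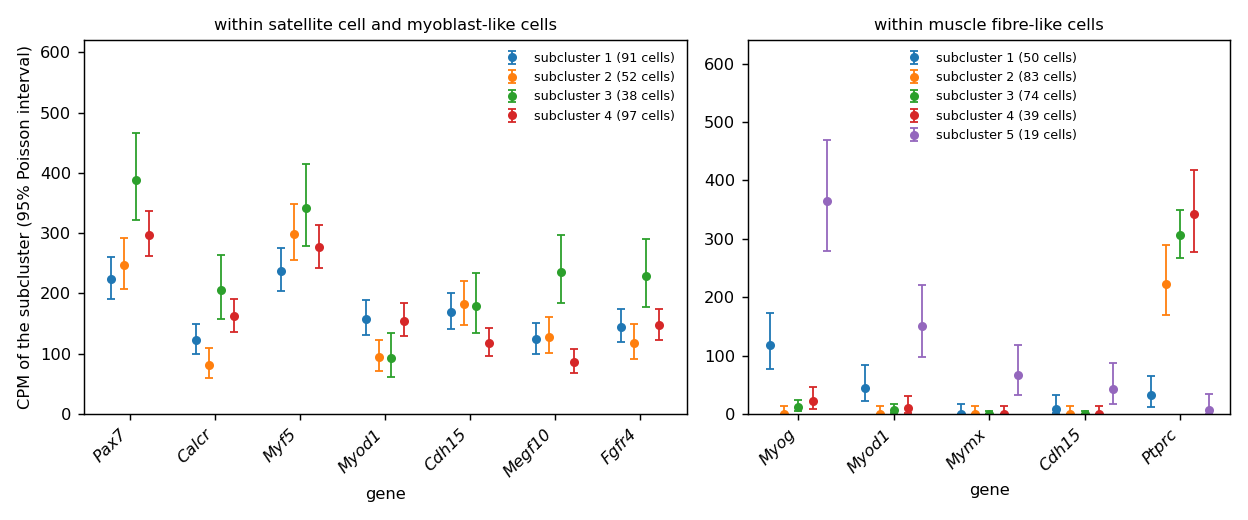
Level (CPM, with 95% Poisson intervals) of the 7 detected genes in 4 subclusters of the satellite cell and myoblast-like cells (left), and of Myog, Myod1, Mymx, Cdh15 and the leukocyte gene Ptprc in 5 subclusters of the muscle fibre-like cells (right). On the left Pax7 and Megf10 are highest in the subcluster of 38 cells (388 and 236 CPM), and on the right Myog reaches 366 CPM in the subcluster of 19 cells, where Ptprc is near 0.

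A few barcodes held much of the myogenin. Of the 280 Myog UMIs in all barcodes, 94 (33.57%) were in 2 barcodes, picked after their values were seen because they held at least 10 each, while no other barcode held more than 7. The first, of 27793 UMIs, had 73 Myog, 6 Mymk, 3 Mymx and 13 Megf10 UMIs, 2 of Myod1 and 0 of Pax7, Calcr, Myf5, Cdh15 and Fgfr4. It held 86 UMIs of the cell cycle inhibitor Cdkn1c and 0 of the proliferation gene Mki67, besides 9 of Ptprc and 10 of Csf1r. It had been removed as a predicted doublet, and took the satellite cell and myoblast name when doublets were kept. Its 6 Mymk UMIs were 6 of the 14 in all barcodes. The second, of 10097 UMIs, was among the fibre-like cells with 21 Myog and 2 Myod1 UMIs, 14 of Myf6, 386 of Acta1 and 0 of Ptprc.

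Outside the satellite cell and myoblast-like and fibre-like clusters the members were scarce, with 3 exceptions. In the 430 proliferating cells Myf5 was counted 69 times in 25 cells (16.6 CPM), Myod1 51 times in 21 cells (12.2 CPM), Fgfr4 35 times (8.40 CPM), Megf10 34 times (8.16 CPM), Pax7 19 times and Calcr 1 time. Of these cells, 18 passed a gate that asked for 3 or more UMIs spread over 2 or more of 7 other muscle genes. Of the 18, 12 held Myod1, 10 Myf5, 9 Pax7 and 7 both Pax7 and Myod1 (38.9%), while 0 held Calcr or a differentiation gene and 17 held Top2a. Most member UMIs of the proliferating cells lay in these 18: 52 of 69 for Myf5, 41 of 51 for Myod1 and 27 of 35 for Fgfr4. Megf10 had 26 of 34 in them and Pax7 15 of 19. Megf10 was counted 186 times in the 1231 tenocyte-like cells (23.5 CPM), of which 164 UMIs were in 72 cells of a cluster led by Shisal2b, Gpha2 and Col22a1 (34.7 CPM, 29.6 to 40.4), and 18 times in the 349 Schwann-like cells (9.64 CPM). In the 150 cells of the cluster named from T and NK markers, of median depth 2645 UMIs, all 7 genes were counted. Pax7 was at 41.2 CPM there, Myf5 at 35.9 CPM, Megf10 at 33.2 CPM and Myod1 at 7.97 CPM. The muscle gate was passed by 27 of these cells, which held 18 of the 31 Pax7 UMIs and 12 of the 27 Myf5 UMIs of the cluster. Myog, Mymk and Mymx were at 0 in the whole cluster. It was a mixed group: its T and NK list summed to 1214 CPM, with a median of 0 CPM in a cell. The monocyte/macrophage list summed to 14526 CPM, the mesenchymal list to 2855 CPM and the satellite cell and myoblast list to 1163 CPM.

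The classes can thus be ordered for each gene. For Pax7 satellite cell and myoblast-like cells came first, then the mixed T and NK-named cluster (28.0 to 58.5 CPM). Proliferating cells (2.74 to 7.12 CPM) followed, and the intervals of these neighbours did not overlap. For Myod1 satellite cell and myoblast-like cells came first, then fibre-like cells (18.9 to 35.3 CPM). Proliferating (9.11 to 16.1 CPM) and T and NK-named cells (2.93 to 17.4 CPM) followed and overlapped. For Megf10 the T and NK-named (21.5 to 49.0 CPM) and tenocyte-like cells (20.2 to 27.1 CPM) overlapped. The levels of the T and NK-named cluster are those of a mixed group and not of T and NK cells. For Myog the fibre-like cells came first and the next class, the tenocyte-like cells, was at 0.884 CPM.

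The genes known to work with the members were read from lists of names, by the same 4-fold size. Over all 20414 genes compared, 1032 were higher and 2285 lower. Of 20 quiescence and satellite cell genes, 12 were higher and 2 lower in the satellite cell and myoblast-like cells than in the other cells (median log2 ratio 2.77, against 0 over all genes), among them Chrdl2 (8.44), Asb5 (6.55), Edn3 (6.38) and the Notch target Heyl (5.75). These 4 and 3 more of the list are among the markers that named the cluster, so their height restates how it was named. Without them 5 of 13 were higher and 2 lower (median 1.81). Of 24 partners and inhibitors of the regulators, 12 were higher and 2 lower (median 1.48): Pax3, the sister factor of Pax7, had a log2 ratio of 8.36, and Mef2c, a partner of myogenin, of -7.41. Without the 5 naming markers in this list, 8 of 19 were higher and 2 lower (median 0.44). Among 14 denervation-responsive muscle genes 6 were higher and 0 lower (median 0.96), with the receptor subunit Chrnb1 at 5.45, Ncam1 at 4.81 and Musk, the receptor kinase of the synapse, at 4.59. Musk and 1 more gene of this list named the cluster, and without them 4 of 12 were higher and 0 lower (median 0.74). Of 19 other fusion genes 2 were higher and 3 lower (median 0), with Itga9 at -4.60, Myof at -4.14 and Cdon, also a naming marker, at 2.24. Of 16 cell cycle genes 0 were higher and 5 lower (median -1.75), with Cenpf at -4.45 and Mki67 at -3.20. Both are on the list that named the proliferating cluster, which is among the other cells. That list summed to 35.5 CPM in the satellite cell and myoblast-like and 35.3 CPM in the fibre-like cells. In mesenchymal-like cells it was at 44.6 CPM, in monocyte/macrophage-like cells at 58.1 CPM and in the T and NK-named cluster at 679 CPM. The part of the proliferating cluster in these ratios was not tested. Of 9 cell cycle exit genes only Gadd45a was higher (2.69). Of 17 early sarcomere genes 2 were higher and 6 lower (median 0), with the filament gene Des at 3.86 and Ckm at -2.91. Des and 2 more of these are naming markers, and without them 0 of 14 were higher and 6 lower.

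**Figure D5:**
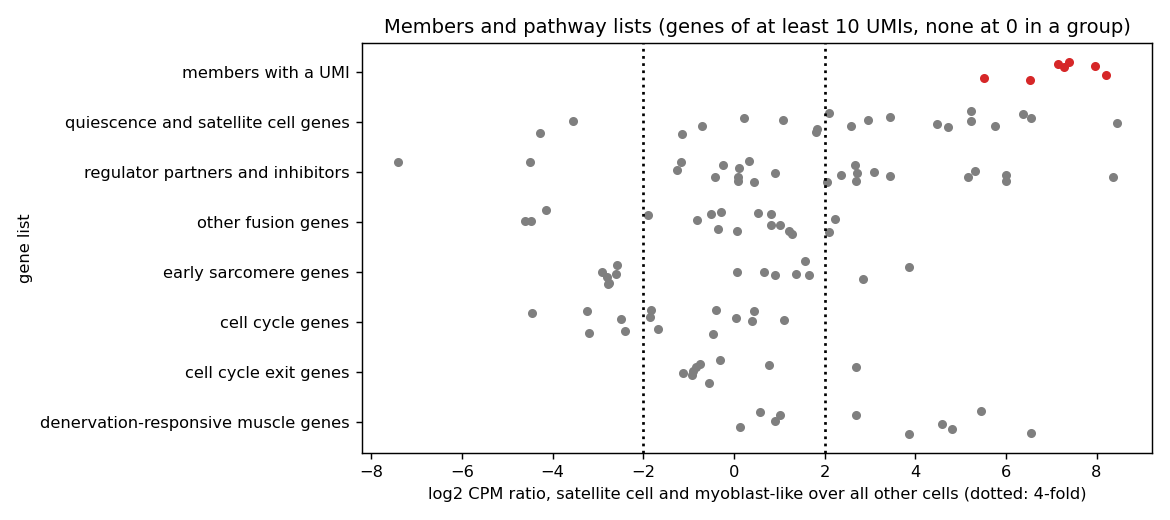
log2 CPM ratio of the satellite cell and myoblast-like cells over all other cells, 1 point a gene with at least 10 UMIs and none at 0 in either group, for the members (red) and 7 pathway lists (grey), with dotted lines at 4-fold. The 7 members lie between 5.51 and 8.20, and the quiescence genes, of which 7 also named the cluster, spread from below -4 to 8.44.

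Between the fibre-like and the satellite cell and myoblast-like cells the lists were read in the same way. Of 20 quiescence genes 15 were lower and 1 higher in the fibre-like cells (median log2 ratio -3.46, against 0.00 over all genes), and of 15 early sarcomere genes 14 were higher and 0 lower (median 3.85), with Ckm at 8.77, Tnnt3 at 8.68 and Acta1 at 8.66. Of 24 partners and inhibitors 4 were higher and 11 lower (median -1.16), with Mef2c (8.50) and Myf6 (6.35) among the higher and the inhibitor Id3 (-4.07) among the lower. Of 10 denervation-responsive genes 2 were higher and 4 lower (median -0.82). Trim63, a ubiquitin ligase that rises in denervated fibres, was counted 147 times in the fibre-like cells and 0 times in the satellite cell and myoblast-like cells, while Ncam1 was lower (-6.53). Ckm, Tnnt3 and Acta1 are on the marker list that named the fibre-like cluster, so their height restates how it was named. Of the 20 quiescence genes, 7 are on the list that named the satellite cell and myoblast-like cluster, and so is Myf6. Counts between these clusters without the naming markers are not given here. The macrophage RNA described above stands in this comparison too, and its part in it was not tested.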

How the data were processed

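The GFP+ matrix holds UMI counts for every feature in every called barcode, deposited by the authors as Cell Ranger wrote them, with no normalization. The labels name Cell Ranger 7.1.0, Seurat 4.30 and mm10, the matrix header Cell Ranger 8.0.1, and the study's methods both GRCm38 and GRCm39. Gene positions and promoters were read from RefSeq GRCm38.p6 by gene symbol, and the matrix itself holds no coordinates. A barcode was used if it had at least 2000 UMIs, over 200 genes and less than 10% of UMIs from mitochondrial genes (18528 of 36400). The 14.56% of highest Scrublet score (2698, 0.4% for each 1000 barcodes) were removed, in place of the study's DoubletFinder and DecontX, so free RNA was not subtracted.

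Counts were scaled to 10000 per cell, log-transformed and clustered with 2000 variable genes, 30 components, 20 neighbours and Leiden resolution 1 (scanpy 1.11.5, python-igraph 0.11.9, numpy 2.4.6, scipy 1.17.1). Within a class, 1000 variable genes, 15 components and resolution 0.5 were used. The 10 genes were left out of both and of the marker lists. For its name, a cluster needed 3 markers of a list that were found in 10% or more of its cells and were 1.5-fold or more above the remaining cells. This left 1106 cells unnamed. CPM are summed UMIs of a class for each 1000000 of its UMIs, with exact Poisson 95% intervals. Ratios carry exact conditional intervals and shares exact binomial (Clopper-Pearson) ones, and all cover counting error only. Genes with at least 10 UMIs in both groups together were compared, and a gene at 0 in a group was set at the floor of 3 counts. Where that floor put the group with 0 above the other, the log2 ratio was set to 0. A median of 0 can therefore come from this rule and is not by itself a measured equality. With 1 library for each group no test was made.

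The members, lists and alternatives were chosen with earlier results of these data known. All members are named. From each list at most 4 genes with at least 20 UMIs and the largest ratios are named (some are not reported here), for likeness the 5 genes of highest r among those in at least 5% of cells, and for a cluster up to 5 of its 10 leading genes. The likeness over fibre-like cells and the second clustering of these cells were added after the data were seen. So were the comparison of lists between them and the satellite cell and myoblast-like cells, and the genes given for single barcodes and for the 19 cells. The same holds for Spry1, Chodl, Heyl, Des, Fos, Jun, Egr1 and Cdkn1a in cells with and without Myod1. The steps were tested on simulated data. Alternatives were other UMI minimums, stricter filters, no doublet removal, other resolutions, a gate on 7 muscle genes, cells free of 6 genes of other cell types and other thinning depths.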

Additional observations from a re-analysis of the deposited data

Results flagged for a closer look

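Myog was also counted in barcodes that the comparisons did not use. Barcodes under 2000 UMIs held 45 Myog UMIs, and barcodes of at least 2000 UMIs that were not kept held 86, of which 73 were in the predicted doublet described above. In the barcodes under 2000 UMIs Myog was at 1.82 CPM, against 1.64 CPM over all barcodes and 1.14 CPM in the cells kept. The 45 UMIs are therefore near the level of the whole library. The barcodes of at least 2000 UMIs that were not kept held Myog at 5.65 CPM.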

How the results depend on the processing

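The 7 detected genes were higher in the satellite cell and myoblast-like cells under every alternative run, with log2 ratios from 4.92 to 11.23. Of 61 values for single genes, 34 moved by less than their interval, 27 by more and 0 changed direction. The log2 ratio of the 10 genes summed was 6.85, and became 6.40 with at least 1000 UMIs, 7.84 with at least 5000, 6.61 without doublet removal and 6.32 with the gate. With thinning to 1000 UMIs Pax7 was seen in 21.9% of cells, and without thinning in 79.9%. Genes at least 4-fold higher made up 3.64% when at least 50 UMIs were asked for (612 of 16825 genes). The highest Myod1 level of a subcluster rose from 158 to 258 CPM at resolution 1 of the second clustering. Cells with both a quiescence and a differentiation gene stayed at 0% in the class under the other filters, depths, resolutions and gates, while over all 36400 barcodes, added after the data were seen, there were 3, and with Myod1 in place of the differentiation genes the share was 4.86%. The gate gave 536 cells, of which 19 held a differentiation gene. The Myog level of the fibre-like cells ran from 10.8 CPM at resolution 2 to 229 CPM with over 500 genes and less than 5% mitochondrial UMIs, and the Myog share in them reached 78.1% with at least 5000 UMIs. Without the markers that named the cluster, left out after the data were seen, the median log2 ratio of the quiescence list fell from 2.77 to 1.81. The causes of these shifts were not tested. At this depth a gene at 0 in the 288 cells may be present at up to 1.45 CPM. No paired analysis was possible because each group holds 1 library.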
